A study of Mus musculus with 2 samples.

Results

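The p53 target genes described here were the 10 genes Cdkn1a, Mdm2, Ccng1, Bax, Bbc3, Pmaip1, Trp53inp1, Zmat3, Phlda3 and Aen, taken by symbol from the 32285 features of both single-cell libraries. All 10 were among the features. They were compared in J558 allograft tumours between 1 library of a vehicle-treated and 1 library of a TAK-931-treated sample, in tumour cells, macrophages, monocytes, T cells, endothelial cells and stromal cells. J558 is a mouse plasmacytoma line, grown here under the skin of female BALB/c mice, and TAK-931 is an inhibitor of CDC7, the kinase that starts replication at origins. Vehicle was 0.5% methylcellulose, TAK-931 was given by mouth at 60 mg/kg once daily, and both samples were taken at day 6. Both groups carried the same line in the same strain. The study's mice were 4 weeks of age, and each library came from 1 allograft that was taken as representative of its group. With 1 library per group no spread between animals could be measured, so no test was made and every interval below covers counting error only.

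The transcription factor p53 is stabilised by DNA damage and replication stress and turns on genes that stop the cell cycle, repair DNA or trigger apoptosis. Cdkn1a encodes p21, the inhibitor of cyclin-dependent kinases through which p53 stops the cycle, and Ccng1 encodes cyclin G1. Mdm2 encodes the ubiquitin ligase that marks p53 for degradation, so that p53 limits itself. Bax, Bbc3 (PUMA) and Pmaip1 (NOXA) encode members of the BCL-2 family that drive the mitochondrial pathway of apoptosis. Trp53inp1 encodes a nuclear protein with roles in cell death and autophagy, Zmat3 an RNA-binding zinc finger protein, Phlda3 a protein that holds back the kinase AKT at the membrane, and Aen a nuclease active in apoptosis. Several of these genes also have other activators; Cdkn1a, Mdm2 and Pmaip1 are transcribed without p53 in some settings, and Cdkn1a is known to be high in differentiating myeloid cells.

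Levels are unique molecular identifiers (UMIs, tags that count single transcripts) of a gene, scaled to 1000000 UMIs of its class (CPM), with exact Poisson 95% intervals. The vehicle library held 4565 barcodes and the TAK-931 library 6558, of which 3441 and 3488 passed the limits of more than 2000 genes and less than 15% mitochondrial UMIs, with medians of 40504 and 15097 UMIs per cell, and 8 barcode sequences occurred in both. Cells were placed in a class by counts of fixed markers. There were 2995 vehicle and 108 TAK-931 tumour cells, 125 and 1001 macrophages, 60 and 590 monocytes, 14 and 653 T cells, 79 and 167 endothelial cells and 41 and 85 stromal cells. Other kept cells fell in no class, among them 38 vehicle and 484 TAK-931 myeloid cells between macrophages and monocytes. These myeloid cells held 4.94% of vehicle and 19.2% of TAK-931 Cdkn1a UMIs. A further 26 and 124 cells had markers of several lineages, and 57 and 230 met no gate. Each class carried its own markers, with none of its 10 at 0 in either library. Tumour markers such as Jchain summed to 79214 and 90245 CPM in tumour cells, against 857 to 1603 CPM in the other vehicle classes and 217 to 493 CPM in the other TAK-931 classes. The label's cell type, B lymphocyte, fitted the tumour class only as plasma cells: markers of host B cells summed to 23.5 and 36.5 CPM in it. A gene was called higher or lower in a class when its ratio was at least 1.5-fold and the exact binomial interval of the ratio left out equality, given at least 10 UMIs over both libraries.

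The start regions of the genes are shown first, because p53 acts by binding pairs of 10-base half-sites close to or within its targets. RefSeq start windows on GRCm38, from 250 bases before to 50 after an annotated start, were at hand for 7 members in 11 windows, and Pmaip1, Trp53inp1 and Zmat3 had no entry. A pair of half-sites of the p53 consensus, with at most 2 mismatches in its 20 letters and at most 13 bases between them, lay in 3 of the 11 windows (27.3%) and in 4.09% of all 32851 windows. Mismatches were allowed only outside the C and the G at the core of each half-site. The half-site reads the same on both strands. These 3 windows belonged to Cdkn1a, Ccng1 and Bax, with 1, 1 and 2 mismatches, and each stretch is printed on the gene's strand with the half-sites in capitals.
Cdkn1a, chr17:29090908-29090967, + strand: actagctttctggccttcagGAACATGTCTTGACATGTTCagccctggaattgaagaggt
Ccng1, chr11:40755442-40755501, - strand: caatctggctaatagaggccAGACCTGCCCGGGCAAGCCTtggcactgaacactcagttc
Bax, chr7:45467059-45467119, - strand: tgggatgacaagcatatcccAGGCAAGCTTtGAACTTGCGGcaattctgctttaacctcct
The Cdkn1a pair began 51 bases before the first of its annotated starts and 2841 bases before the second, the Ccng1 pair 195 and the Bax pair 201 bases before the start. In Bax 1 base separated the half-sites. No such pair was in the windows of Mdm2, Bbc3, Phlda3 and Aen or in the second window of Cdkn1a. These matches describe letters only, and no binding was measured here.

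Over all kept cells of each library, the members split into 5 higher, 3 lower and 2 not called in the TAK-931 library, where 42.1% of all genes tested were higher and 25.3% lower. Cdkn1a was at 35.8 CPM with vehicle and at 345 CPM with TAK-931, a log2 ratio of 3.27 (3.23 to 3.32). Phlda3 went from 1.55 to 14.2 CPM (log2 3.20), Mdm2 from 48.3 to 206 CPM (2.09), Bax from 102 to 224 CPM (1.13) and Zmat3 from 5.64 to 9.10 CPM (0.69). Trp53inp1 was lower, at 110 against 36.9 CPM (-1.58), as were Pmaip1 (90.8 against 48.7 CPM, -0.90) and Aen (23.6 against 14.6 CPM, -0.69). These whole-library values mix the level in each class with how much of the library each class takes up, and tumour cells gave 94.2% of vehicle UMIs and 11.2% of TAK-931 UMIs.

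For a recomputation, kept cells outside the 6 classes were added as groups of their own, by gate outcome. With the vehicle level of every class and group and the TAK-931 shares of UMIs, the log2 ratio of Cdkn1a was 3.11. With TAK-931 levels and vehicle shares it was -0.14. The source of the Cdkn1a UMIs moved accordingly: tumour cells gave 59.4% of them with vehicle and 0.430% with TAK-931, while macrophages and monocytes together gave 22.3% and 60.4%. Phlda3, which is high in stromal and endothelial cells, had 2.77 from shares alone and 0.43 from levels alone, and Bax 1.13 and -0.29. Trp53inp1, with 98.4% of its vehicle UMIs in tumour cells, had -1.78 from shares and 0.30 from levels. Mdm2 was the member with the largest gap between its whole-library value (2.09) and the value from shares alone (1.34).

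**Figure D1:**
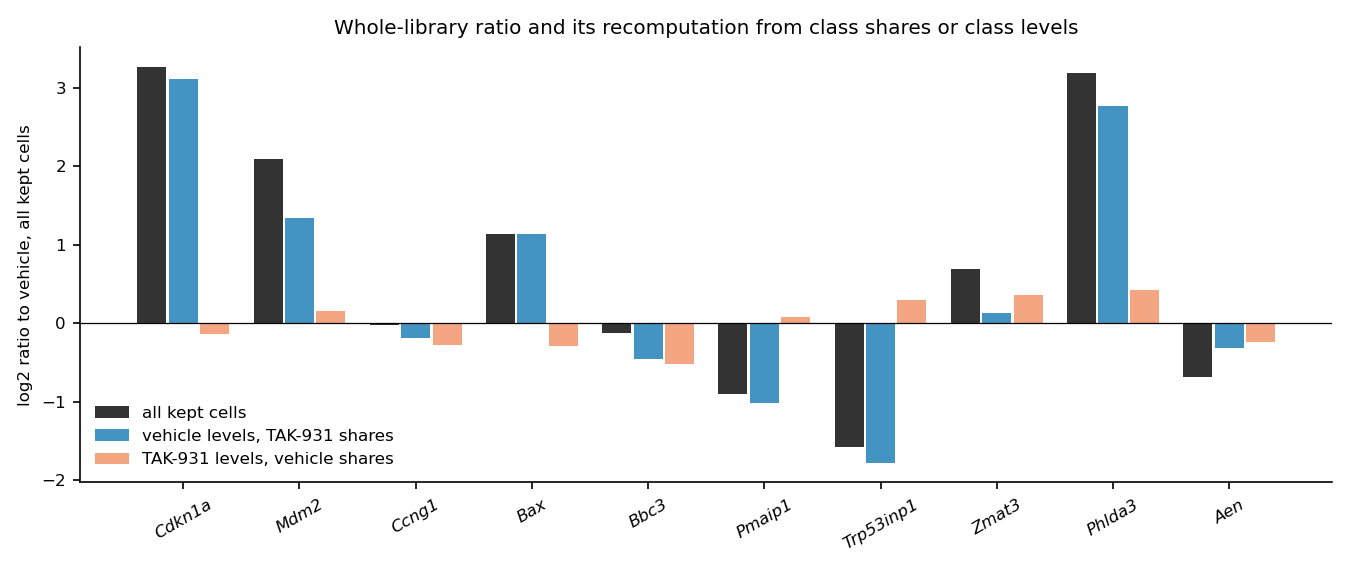
Log2 ratio to the vehicle library over all kept cells for each member, as measured (dark bars), with vehicle levels and TAK-931 class shares (blue), and with TAK-931 levels and vehicle class shares (orange). For Cdkn1a the first 2 bars stand at 3.27 and 3.11 and the last at -0.14.

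Within classes, 59 of the 60 pairs of member and class had enough UMIs, and 13 were called higher, 1 lower and 45 neither. In tumour cells 0 of 9 members were higher and 1 lower, where 14.0% of 14836 genes tested were higher and 6.79% lower. Macrophages had 4 of 10 members higher and 0 lower, with 7.63% of genes tested higher and 16.1% lower. In monocytes 4 of 10 were higher and 0 lower (7.53% and 5.94% of genes tested), and in T cells 0 and 0 (3.42% and 4.26%). Endothelial cells had 2 of 10 higher and 0 lower (9.56% and 16.7% of genes tested) and stromal cells 3 of 10 higher and 0 lower (13.9% and 13% of genes tested). The shares called were therefore above the background for higher calls in macrophages and monocytes and, by about 1 or 2 genes, in endothelial and stromal cells.

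Median log2 ratios over the members were -0.23 in tumour cells, 0.24 in macrophages, 1.08 in monocytes, -0.23 in T cells, 0.06 in endothelial and 0.36 in stromal cells. Over all genes tested the medians were 0.02, -0.07, 0.13, -0.03, -0.12 and -0.01 in the same order. The T cell and endothelial member medians changed sign under some alternatives, such as 0.52 with the top cell of each gene left out and -0.20 with the mean of cell CPM. The closing section gives these. In monocytes the 9 members with UMIs in both libraries all had ratios above 0, as had 6254 of the 10955 genes tested. Of these monocyte ratios, those of Zmat3, Aen and Trp53inp1 came from 1, 3 and 4 vehicle UMIs and had intervals that included 0. Phlda3 had no vehicle UMI there, and with it placed at its bound the monocyte median was 0.85. With Zmat3, which had no vehicle UMI in T cells, at its bound the T cell median was -0.28. The vehicle sums were small in monocytes, at 503043 UMIs in all, and in T cells, at 236917 UMIs from 14 cells.

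**Figure D2:**
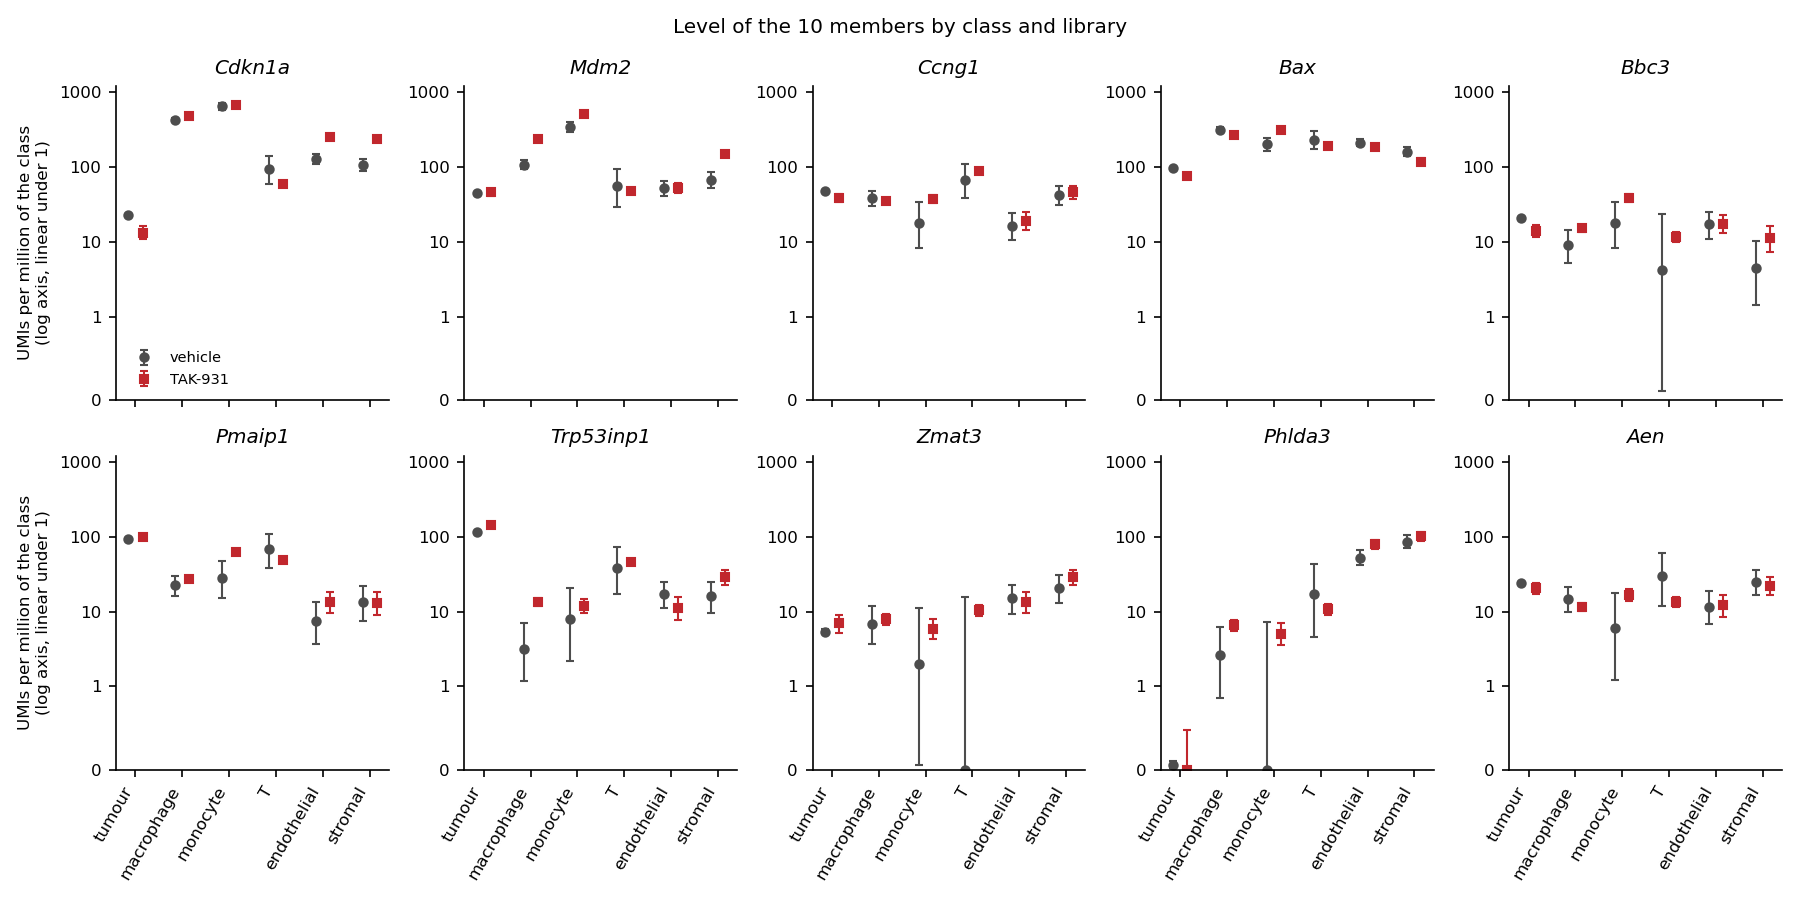
Level of each member in CPM (vertical axis, logarithmic above 1 and linear below) by class, in the vehicle (grey circles) and TAK-931 library (red squares), with exact Poisson 95% intervals. Cdkn1a spans from 13.2 in TAK-931 tumour cells to 676 in TAK-931 monocytes, and Phlda3 lies highest in stromal and endothelial cells.

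Cdkn1a was lowest in tumour cells and highest in monocytes in both libraries. In tumour cells it was at 22.5 CPM (21.7 to 23.4) with vehicle and 13.2 CPM (10.8 to 16.1) with TAK-931, and the 2 intervals did not meet. This log2 ratio of -0.77 (-1.07 to -0.48) was the only lower call among the members in the 6 classes. The mean numbers of Cdkn1a UMIs per tumour cell were 1.00 and 0.954, a log2 ratio of -0.07 (-0.37 to 0.22), and the median TAK-931 tumour cell held 72254 UMIs of all genes against 42442 in the vehicle. TAK-931 tumour cells also carried more UMIs of other classes' markers, with the T cell list at 141 against 1.54 CPM, the macrophage list at 231 against 23.5 CPM and the shared myeloid list at 974 against 495 CPM. By clusters, 7 of the 108 TAK-931 tumour cells lay with T cells, 1 with endothelial cells and 3 in unnamed clusters, against 0, 1 and 2 of the 2995 vehicle cells, and with whole clusters named in place of gates the Cdkn1a ratio was -0.93 (-1.26 to -0.62). Free RNA, transcripts from broken cells that enter any droplet, was estimated from such markers at 2.78% of the whole-library level in TAK-931 and 3.33% in vehicle tumour cells, which corresponds to 9.11 and 1.23 CPM of Cdkn1a. After its subtraction the tumour log2 ratio of Cdkn1a was -2.36, and with thinning to 4000 UMIs, where few UMIs remained, the call was lost at -0.81 (-2.45 to 0.43).

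In macrophages Cdkn1a was at 424 CPM (395 to 455) with vehicle and 480 CPM (470 to 489) with TAK-931, a log2 ratio of 0.18 (0.07 to 0.28) that stayed below the fold. Monocytes had 646 CPM (578 to 720) and 676 CPM (657 to 694), with a ratio of 0.06 (-0.10 to 0.23). Its level was thus high in myeloid cells of the vehicle tumour too, and in both libraries monocytes, macrophages and all other classes followed in that order without overlap of the top 2 with any other. T cells had 92.9 CPM (58.2 to 141) and 59.1 CPM (54.9 to 63.6), from 22 UMIs in the vehicle, and the ratio's interval reached 0 (-0.65, -1.26 to 0.03).

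Endothelial and stromal cells were the classes where Cdkn1a was called higher. Endothelial cells had 127 CPM (110 to 147) with vehicle and 250 CPM (232 to 268) with TAK-931, a ratio of 1.96-fold (log2 0.97, 0.74 to 1.21). Stromal cells had 107 CPM (88.7 to 128) and 235 CPM (216 to 255) (log2 1.14, 0.85 to 1.43). In both classes the intervals of the libraries lay apart. The endothelial call was lost with the mean of cell CPM (0.55) and with every cell thinned to 4000 UMIs (0.52), and the stromal call with thinning (0.49). Other markers differed in the same classes. In endothelial cells their own list went from 9059 to 6157 CPM, the macrophage list from 113 to 565 CPM, the myeloid list from 69.4 to 599.9 CPM and the pericyte marker Rgs5 from 2.72 to 178 CPM, and the median mitochondrial share from 4.62% to 7.52%. In stromal cells the macrophage list went from 49.5 to 854 CPM and the myeloid list from 143 to 706 CPM, and of the 10 stromal markers 6 were at higher levels with TAK-931, such as Dcn (553 to 2776 CPM) and Rgs5 (1085 to 1776 CPM), and 4 at lower levels, such as Acta2 (4887 to 1218 CPM) and Pdgfra (184 to 144 CPM), and the median mitochondrial share from 3.19% to 4.88%. With free RNA subtracted the Cdkn1a ratios were 0.94 and 1.08, both still called; the part of the make-up of the classes was not tested. The share of endothelial cells with a Cdkn1a UMI, after every cell was thinned to 4000 UMIs, was 30.4% (20.5 to 41.8) and 29.3% (22.6 to 36.9), so the higher level was not seen as a higher share of cells. In stromal cells these shares were 31.7% (18.1 to 48.1) and 42.4% (31.7 to 53.6), which overlap. The Cdkn1a level estimated from free RNA was 0.717 and 12.4 CPM in endothelial cells and 0.956 and 22.5 CPM in stromal cells, and neither these shares nor the other shares of cells with a UMI given here were corrected for it.

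Ccng1 was called higher in monocytes alone among the 6 classes, at 17.9 CPM (8.18 to 34.0) from 9 UMIs with vehicle and 37.2 CPM (33.0 to 41.9) with TAK-931 (log2 1.06, 0.11 to 2.20). The call was lost with whole clusters named (0.18), with thinning (1.42) and without cells with G2/M UMIs (0.90). Its highest values were in T cells, at 67.5 CPM (38.6 to 110) and 88.0 CPM (82.8 to 93.4). In tumour cells Ccng1 was at 47.5 and 38.6 CPM (log2 -0.30, -0.47 to -0.13), under the fold. Macrophages (38.2 and 35.2 CPM), endothelial cells (16.3 and 19.1 CPM) and stromal cells (41.5 and 45.7 CPM) each had overlapping intervals.

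Mdm2, the feedback ligase, was called higher in macrophages and stromal cells. In macrophages it was at 107 CPM (92.4 to 123) with vehicle and 237 CPM (231 to 244) with TAK-931, a ratio of 2.22-fold (log2 1.15, 0.95 to 1.36). The macrophage class itself differed in its markers: the macrophage list stood at 34422 and 34155 CPM in it and the monocyte list at 430 and 1049 CPM. With TAK-931, 6 of the 10 monocyte markers were at higher and 4 at lower levels in it, from Ly6c2 (25.5 and 342 CPM) to Treml4 (66.9 and 11.9 CPM), and 2 of the 10 macrophage markers at higher and 8 at lower levels, from Adgre1 (273 and 385 CPM) to Pf4 (608 and 136 CPM). Of the gated macrophages, 18 of 125 with vehicle and 207 of 1001 with TAK-931 lay in clusters named monocyte. With whole clusters named in place of gates the Mdm2 ratio was 0.99 (0.78 to 1.21); the macrophage clusters then held 118 and 906 cells, of which 107 and 774 were gated macrophages. The part of these markers in the result was not tested. At 4000 UMIs per cell, 28.8% (21.1 to 37.6) of vehicle macrophages and 52.4% (49.3 to 55.6) of TAK-931 macrophages had an Mdm2 UMI, a difference of 23.6 points (14.3 to 32.0). Monocytes had 342 CPM (293 to 397) and 502 CPM (486 to 518), for a log2 ratio of 0.55 (0.33 to 0.78) just under the fold, which was called higher under 5 of 13 alternatives, with shares of 70.0% and 70.7%. Stromal cells had 67.1 CPM (52.9 to 84.0) and 149 CPM (134 to 165), which gave a ratio of 2.21-fold (log2 1.15, 0.79 to 1.52), of which 1 TAK-931 cell gave 11.5% of the UMIs. In this class the macrophage list was at 49.5 and 854 CPM, and its part was not tested. Free RNA corresponded there to 1.25 and 13.6 CPM of Mdm2. The shares of stromal cells with an Mdm2 UMI were 22.0% and 32.9%, a difference of 11.0 points (-7.49 to 26.9). Tumour cells had 45.3 CPM (44.2 to 46.5) and 45.8 CPM (41.1 to 50.8), for a log2 ratio of 0.01 (-0.14 to 0.17). Endothelial cells, at 51.7 and 52.7 CPM (0.03, -0.38 to 0.44), and T cells, at 54.9 and 48.2 CPM (-0.19, -0.97 to 0.73), also had overlapping intervals. Like Cdkn1a, Mdm2 was highest in monocytes and next highest in macrophages in both libraries.

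**Figure D3:**
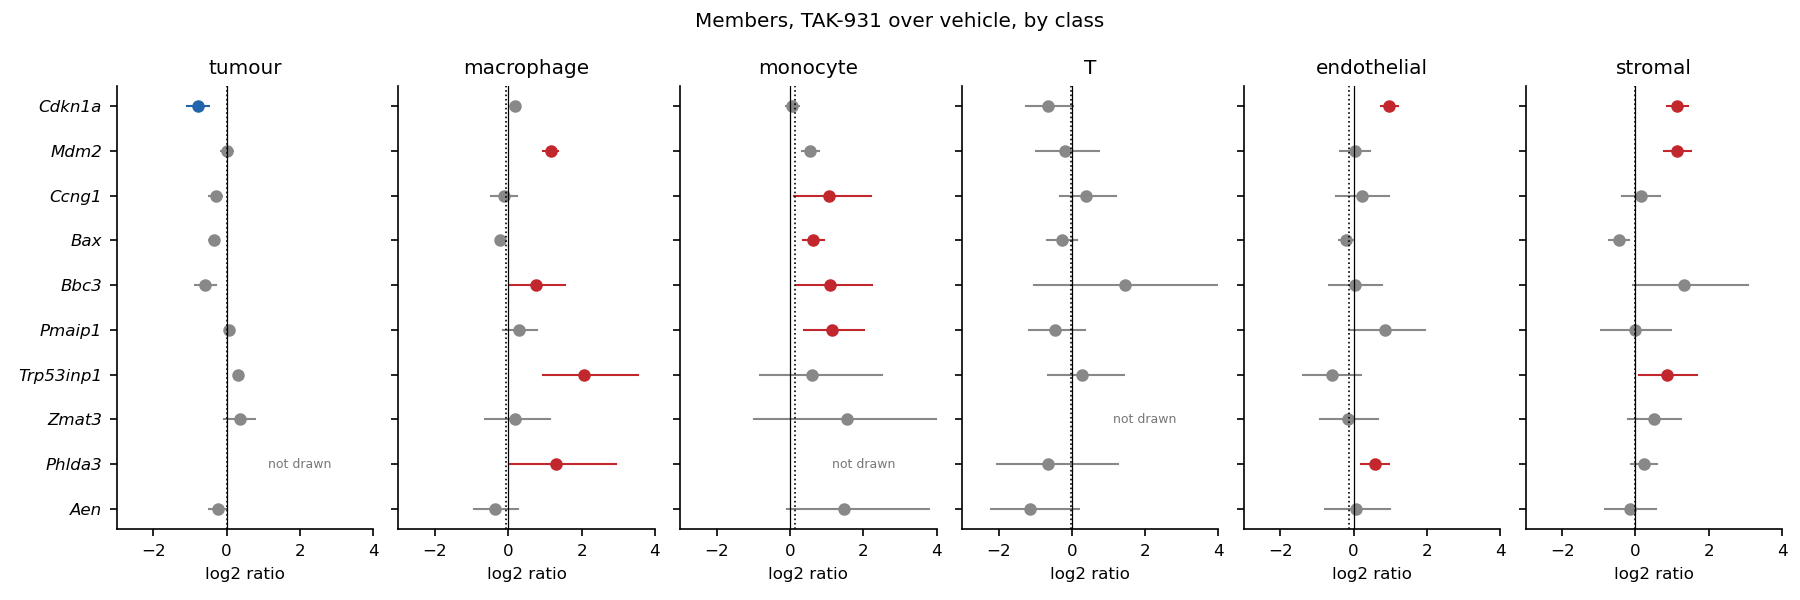
Log2 ratio of TAK-931 over vehicle for each member in each class (points) with exact binomial 95% intervals (lines, cut at the axis limits), red where called higher, blue where called lower and grey otherwise; the dotted line is the median of all genes tested, and pairs with a library at 0 are not drawn. Mdm2 stands at 1.15 in macrophages and stromal cells and 0.01 in tumour cells, and Cdkn1a at -0.77 in tumour cells.

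All 3 BCL-2 family members were called higher in monocytes, where 7.53% of all genes tested and 0 of 9 other BCL-2 family genes tested were higher. Of the 3 member calls only that of Pmaip1 was kept under every alternative tried. The monocyte class also differed in its markers, with the macrophage list at 6023 CPM with vehicle and 2672 CPM with TAK-931 and the monocyte list at 4145 and 6194 CPM. With TAK-931, 5 of the 10 monocyte markers were at higher and 5 at lower levels in it, from Ly6c2 (576 and 1651 CPM) to Hp (254 and 111 CPM), and 4 of the 10 macrophage markers at higher and 6 at lower levels, among the latter Apoe (5592 and 2260 CPM). The part of these markers in the monocyte calls and in the monocyte median was not tested. Bax was at 201 CPM (164 to 244) and 312 CPM (299 to 325) there, a log2 ratio of 0.63 (0.35 to 0.94). This Bax call was lost with a lower limit on genes per cell (0.56) and with whole clusters named (0.06). In the 5 other classes Bax had ratios below 0, from -0.45 in stromal cells to -0.20 in endothelial cells, of which the endothelial one became 0.05 when ratios were scaled by the median gene, and none passed the fold. At 4000 UMIs the share of cells with a Bax UMI was lower with TAK-931 in tumour cells by 10.4 points (interval of the difference -17.8 to -1.43), in macrophages by 12.7 points (-20.7 to -3.57) and in stromal cells by 19.3 points (-37.9 to -0.28).

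Bbc3 was called higher in macrophages and monocytes from few vehicle UMIs. Macrophages had 17 UMIs (9.02 CPM, 5.26 to 14.4) and 296 UMIs (15.1 CPM, 13.4 to 16.9), for a log2 ratio of 0.74 (0.04 to 1.54), and the Poisson intervals of the levels overlapped. Monocytes had 9 UMIs (17.9 CPM, 8.18 to 34.0) and 287 UMIs (38.3 CPM, 34.0 to 43.0), which gave a ratio of 1.10 (0.15 to 2.24). The monocyte call of Bbc3 was lost with whole clusters named (0.51) and with thinning (0.78), and the macrophage call under 4 of 13 alternatives. In tumour cells Bbc3 was at 20.7 CPM (19.9 to 21.5) and 13.9 CPM (11.4 to 16.8), and its log2 ratio of -0.58 (-0.87 to -0.30) stopped just short of 1.5-fold, with the intervals apart. It was called lower there under 6 of 13 alternatives. Endothelial cells had 17.0 and 17.5 CPM. Stromal cells (5 and 28 UMIs) and T cells (1 and 143 UMIs) had ratios of 1.33 (-0.06 to 3.06) and 1.46 (-1.04 to 6.77).

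Pmaip1 was at 27.8 CPM (15.2 to 46.7) in vehicle monocytes and 61.5 CPM (56.0 to 67.4) in TAK-931 monocytes, a log2 ratio of 1.14 (0.38 to 2.03), and its share of cells at 4000 UMIs went from 8.33% to 19.7%, by 11.3 points (0.798 to 17.9). It was highest in tumour cells, at 94.4 CPM (92.8 to 96.1) and 99.7 CPM (92.8 to 107), where the libraries overlapped; the vehicle T cell interval (38.6 to 110) also took in the tumour level. Macrophages (22.3 and 27.4 CPM, log2 0.30, -0.16 to 0.79), endothelial cells (7.49 and 13.5 CPM, 0.85, -0.14 to 1.96, called higher under 5 alternatives), T cells (67.5 and 49.5 CPM, -0.45, -1.16 to 0.37) and stromal cells (13.2 and 13.1 CPM, -0.01, -0.93 to 0.97) were not called as measured.

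Trp53inp1 had the largest called ratio of any member in any class, from the smallest count of vehicle UMIs but one among the calls. Macrophages had 6 vehicle UMIs (3.18 CPM, 1.17 to 6.93) and 263 TAK-931 UMIs (13.4 CPM, 11.8 to 15.1), for a log2 ratio of 2.08 (0.93 to 3.53). Its ratio ranged from 1.40 to 3.75 over the alternatives, and the call was lost with thinning (1.52). Stromal cells had 15.9 CPM (9.42 to 25.1) and 28.6 CPM (22.4 to 36.0), which gave a ratio of 0.85 (0.09 to 1.68), which became -0.34 with whole clusters named. Its level was far above all of these in tumour cells, at 115 CPM (113 to 117) with vehicle and 143 CPM (134 to 151) with TAK-931, where the log2 ratio of 0.31 (0.22 to 0.40) left out equality but stayed under the fold. T cells followed with 38.0 CPM (17.4 to 72.1) and 46.4 CPM (42.7 to 50.4), and monocytes had 4 and 90 UMIs (log2 0.59, -0.81 to 2.50). In endothelial cells it was at 17.0 and 11.2 CPM (-0.60, -1.39 to 0.20), the only class with a ratio below 0.

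Phlda3 was nearly absent from tumour cells, with 7 UMIs in 2995 vehicle cells (0.0527 CPM) and 0 in 108 TAK-931 cells, where a count of 0 allows up to 0.386 CPM. It was at 85.7 CPM (69.5 to 105) and 101 CPM (88.6 to 114) in stromal cells and at 52.4 CPM (41.4 to 65.5) and 78.7 CPM (69.1 to 89.4) in endothelial cells, where it was called higher just past the fold (log2 0.59, 0.21 to 0.98). A single TAK-931 endothelial cell gave 12.1% of those UMIs, and thinning brought the ratio to 0.06. In macrophages it was called higher from 5 and 128 UMIs (2.65 and 6.53 CPM, log2 1.30, 0.04 to 2.95), with overlapping level intervals, and this call was lost under 7 of 13 alternatives, such as the stricter gate (1.24) and the mean of cell CPM (0.82). Monocytes had 0 UMIs in the vehicle, which allows up to 5.96 CPM, and 5.07 CPM with TAK-931, so no fold can be given. T cells had 16.9 CPM (4.60 to 43.2) and 10.8 CPM (9.03 to 12.8).

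Zmat3 and Aen were called in no class. Zmat3 was highest in stromal cells (20.3 and 28.6 CPM, log2 0.49, -0.20 to 1.24), was at 5.37 and 6.94 CPM in tumour cells (0.37, -0.06 to 0.77), and had no UMI in the 14 vehicle T cells, which allows up to 12.7 CPM. Aen was at 23.9 and 20.3 CPM in tumour cells (-0.23, with an interval from -0.47 to just under 0), and its ratios ranged from -1.14 (-2.22 to 0.19) in T cells to 1.48 (-0.10 to 3.78) in monocytes, the latter from 3 vehicle UMIs.

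Tumour cells differed in depth between the libraries, so UMIs per cell and CPM gave unlike pictures for the members. Per cell, Trp53inp1 was at 5.10 UMIs with vehicle and 10.3 with TAK-931 (log2 1.01, 0.92 to 1.10), Pmaip1 at 4.19 and 7.19 (0.78), Mdm2 at 2.01 and 3.30 (0.71) and Zmat3 at 0.238 and 0.500 (1.07). Bax (0.36), Ccng1 (0.40) and Aen (0.47) were above 0 per cell and below 0 as CPM. Of the 9 members with 10 or more UMIs in tumour cells only Cdkn1a had a per-cell ratio below 0, and those of Cdkn1a (-0.07) and Bbc3 (0.12, -0.17 to 0.40) had intervals that included 0.

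Because depth and class were tied in this way, the share of cells with a UMI was also taken at 4000 UMIs in every cell, for all 60 pairs of member and class. The interval of the difference was built from exact binomial bounds. It lay above 0 in 3 pairs (Mdm2 in macrophages, Pmaip1 in monocytes and Bbc3 in stromal cells). It lay below 0 in 3 (Bax in tumour cells, macrophages and stromal cells). Such intervals were not built for genes outside the members, so these counts have no background to be read against. The stromal Bbc3 difference of 10.6 points (0.305 to 19.2) came from 0 of 41 cells with vehicle and 9 of 85 with TAK-931. Counted per cell at this depth, 42.6% of TAK-931 and 32.0% of vehicle macrophages had UMIs of 3 or more members, as had 60.5% and 41.7% of monocytes. In stromal cells these shares were 27.1% and 12.2%. They went the other way in tumour cells (13.9% and 17.2%), T cells (21.3% and 35.7%) and endothelial cells (17.4% and 19.0%), and 5.89% of TAK-931 macrophages had a UMI of no member against 1.6% with vehicle. These shares carry no interval, no other set of genes was counted this way, and vehicle had 60 monocytes, 41 stromal and 14 T cells. Among single members in macrophages, Mdm2 went from 28.8% of vehicle to 52.4% of TAK-931 cells, and Bax from 74.4% to 61.7%.

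The members were next compared inside one class and library, between cells with and without a Cdkn1a UMI at 4000 UMIs per cell, in the 7 groups of cells large enough for it. Mdm2 was higher in the Cdkn1a-positive cells of the TAK-931 tumour's myeloid and supporting classes, where the intervals of all other members included equality. In TAK-931 macrophages it was at 128 CPM (107 to 151) in the 270 cells without and 289 CPM (270 to 310) in the 731 cells with a Cdkn1a UMI, a log2 ratio of 1.18 (0.92 to 1.45). TAK-931 monocytes had 358 and 580 CPM (0.70, 0.45 to 0.96), endothelial cells 33.9 and 107 CPM (1.66, 0.65 to 2.70) and stromal cells 102 and 215 CPM (1.08, 0.22 to 1.97). Vehicle macrophages had 93.8 CPM in 32 cells without and 91.4 CPM in 93 cells with Cdkn1a, a ratio of -0.04 (-1.02 to 1.05) from 12 and 34 Mdm2 UMIs. That interval overlaps the one of TAK-931 macrophages, and the difference between the libraries was not tested.

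**Figure D4:**
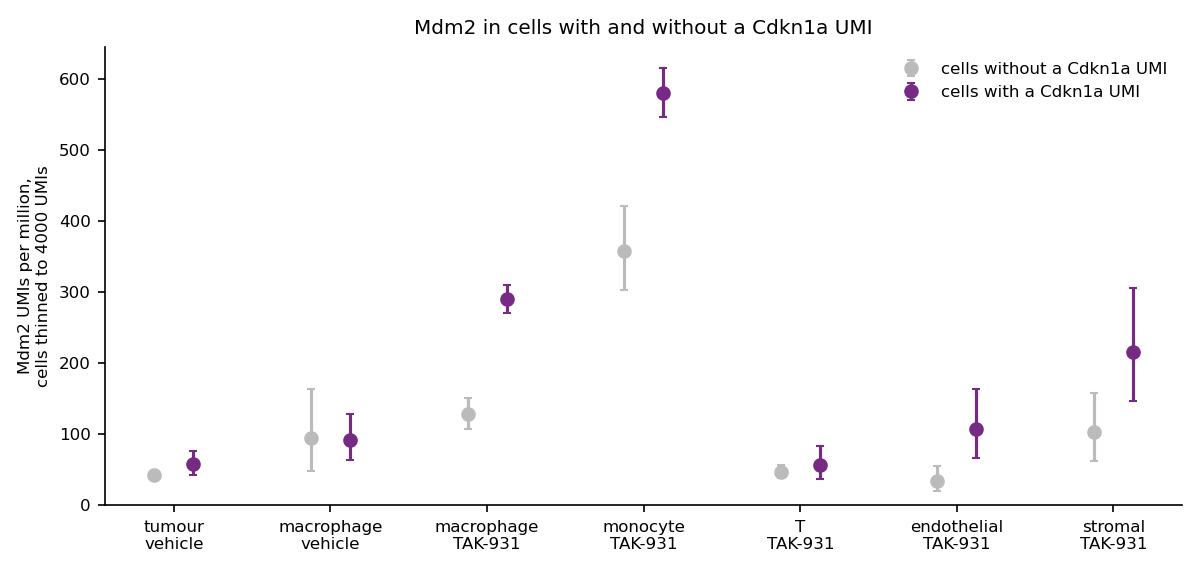
Mdm2 level (vertical axis, CPM after thinning each cell to 4000 UMIs, with exact Poisson 95% intervals) in cells without (grey) and with (purple) a Cdkn1a UMI, by class and library. The 2 groups lie apart in TAK-931 macrophages (128 and 289) and monocytes (358 and 580) and together in vehicle macrophages (93.8 and 91.4).

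Tumour cells of the vehicle library showed another set of members. Their 200 Cdkn1a-positive cells had Trp53inp1 at 195 CPM (166 to 228) against 112 CPM (106 to 118) in the 2795 others (log2 0.80, 0.55 to 1.04) and Pmaip1 at 148 against 91.3 CPM (0.69, 0.40 to 0.97), while Mdm2 (0.43, -0.04 to 0.87) and Ccng1 (0.40, -0.04 to 0.82) had intervals that included 0. The G2/M list was also higher in these cells, at 1556 against 1333 CPM (0.22, 0.14 to 0.31). In TAK-931 T cells Ccng1 (0.56, 0.09 to 1.02) and Pmaip1 (0.64, 0.04 to 1.20) were higher in Cdkn1a-positive cells and Mdm2 was not apart (0.27, -0.42 to 0.92), and there G2/M genes were higher too (0.38, 0.24 to 0.51). In TAK-931 macrophages, monocytes and stromal cells the G2/M list was lower in cells with Cdkn1a (-0.59, -0.80 and -2.49). In vehicle macrophages it was higher in them, at 446 against 234 CPM (0.93, 0.36 to 1.54), as it was in TAK-931 endothelial cells (0.60, 0.15 to 1.05). Cells of 1 library share their source, and Cdkn1a-positive endothelial cells had a median of 23495 UMIs before thinning against 11476 in the others.

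Other genes of the pathway were taken from lists drawn up by function, in which Cdkn2a stands in 2 lists. The counts called in these lists are to be read beside the shares of all genes called in each class, given above with the member calls. Trp53 itself, which encodes p53, was at 93.4 and 81.4 CPM in tumour cells (log2 -0.20, -0.32 to -0.08) and at 72.7 and 50.2 CPM in macrophages (-0.53, -0.79 to -0.27), and was called in none of the 6 classes. It was named after its values were seen. Of 16 genes of p53 and its regulators, 0 were higher and 0 lower of 15 tested in tumour cells, 1 and 1 of 14 in macrophages, 1 and 1 of 12 in monocytes, 0 and 1 of 14 in T cells, 0 and 2 of 14 in endothelial cells and 0 and 1 of 12 in stromal cells. The damage kinase genes moved apart in macrophages, with Atr called higher (log2 1.72, 0.14 to 4.02, from 3 vehicle UMIs) and Atm lower (11.7 to 4.49 CPM). In monocytes Rchy1, another p53 ligase gene, was higher (17.9 to 40.0 CPM) and Cdkn2a, whose product p19ARF blocks MDM2, lower (log2 -2.90, -4.42 to -1.20, from 6 vehicle UMIs). Cdkn2a was lower in endothelial cells too (7.49 to 2.31 CPM), beside the checkpoint kinase gene Chek2 (22.5 to 4.94 CPM).

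A list of 35 other p53 targets had 9 higher and 4 lower of 30 tested in tumour cells, 9 and 4 of 32 in macrophages, 6 and 1 of 30 in monocytes, 1 and 1 of 33 in T cells, 10 and 4 of 30 in endothelial cells and 8 and 1 of 31 in stromal cells. Gdf15, a stress-induced secreted factor, was among the leading genes in several: it was at 98.2 and 270 CPM in macrophages (log2 1.46, 1.25 to 1.68), 4.08 and 37.9 CPM in endothelial cells (3.21, 2.05 to 4.69), and 0 vehicle UMIs against 33.0 CPM in monocytes, at least 5.53-fold higher against a floor of 3 counts over the class. In tumour cells Bcl6 (0.0527 to 0.771 CPM) and Plk2 (0.158 to 1.80 CPM) led the higher genes at very low levels, beside the macrophage and myeloid markers that were also higher there and whose part was not tested, and Sesn2 (29.4 to 11.7 CPM, -1.33) and Rrm2b (13.7 to 6.43 CPM, -1.10) the lower ones. Psrc1 was higher in macrophages (log2 1.86, 0.27 to 4.16, from 3 vehicle UMIs), Bcl6 in monocytes (log2 3.78, 1.28 to 9.09, from 1 vehicle UMI) and Gtse1 in endothelial cells (0 vehicle UMIs, at least 1.94-fold). Ddit4, a target also of hypoxia, was lower in macrophages (34.5 to 10.1 CPM), monocytes (39.8 to 17.9 CPM) and endothelial cells (177 to 94.9 CPM), with Tigar lower in macrophages (7.43 to 1.99 CPM) and Tnfrsf10b in endothelial cells (34.0 to 21.4 CPM).

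**Figure D5:**
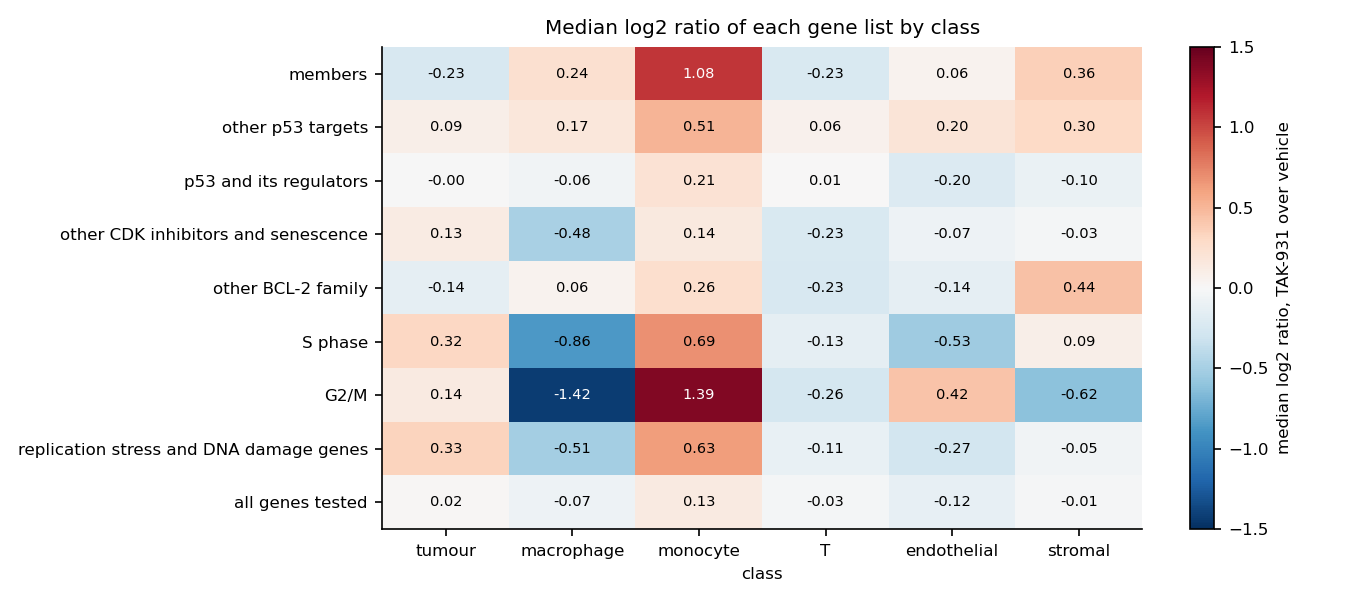
Median log2 ratio of TAK-931 over vehicle for each gene list (rows) in each class (columns), with the median of all genes tested in the last row; genes at 0 in a library enter with 0.5 UMI added to both counts. The members read -0.23 in tumour cells and 1.08 in monocytes, and the G2/M list -1.42 in macrophages.

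Cell-cycle genes, which p21 restrains, went different ways in the classes. In macrophages 19 of 20 G2/M genes were lower, led by Nusap1 (35.6 to 4.54 CPM) and Cenpf (49.4 to 8.01 CPM), and 13 of 20 S phase genes, led by Tyms (24.4 to 3.93 CPM) and Rrm2 (17.5 to 5.26 CPM), while Cdc6 was higher (log2 3.06, 0.55 to 8.38, from 1 vehicle UMI). Tumour cells had 1 of 20 G2/M genes higher (Kif20a, 19.6 to 29.8 CPM) and 0 lower, and 3 S phase genes higher, led by Ccne2 (17.9 to 50.8 CPM) and Fen1 (47.1 to 77.5 CPM), with Pola1 lower (17.3 to 10.4 CPM). Endothelial cells had 7 of 20 G2/M genes higher, led by Cenpf (2.72 to 35.6 CPM) and Nusap1 (2.72 to 12.5 CPM), each from 4 vehicle UMIs, and 5 S phase genes lower, led by Tyms (87.1 to 33.9 CPM) and Uhrf1 (24.5 to 11.9 CPM). Monocytes had 1 S phase gene higher (Pcna, 127 to 193 CPM) and no G2/M gene called. In T cells 3 of 20 G2/M genes were lower, and in stromal cells 2 were higher and 7 lower of 17, with 3 S phase genes called in each direction of 18.

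Replication stress and DNA damage genes, of which 12 of 14 listed were among the feature symbols, had 4 higher in tumour cells, led by Cdc25a (48.3 to 87.3 CPM, 0.85) and Wee1 (18.5 to 33.3 CPM, 0.85), and 3 lower in macrophages, among them Brca2 (5.84 to 1.99 CPM). Monocytes had Dbf4, the activating partner of CDC7, higher (9.94 to 24.4 CPM, 1.30, 0.05 to 2.94), stromal cells 1 gene lower, and T and endothelial cells none called. Other CDK inhibitor and senescence genes in tumour cells had Glb1 higher (18.7 to 30.1 CPM) and Cdkn2b lower (19.0 to 12.6 CPM). Macrophages had 3 lower, led by Cdkn2c (20.2 to 6.33 CPM). Endothelial cells had 2 higher, among them Cdkn2c (10.2 to 18.8 CPM), and 3 lower, led by Cdkn2a and Glb1 (34.7 to 16.1 CPM); monocytes had Cdkn2a lower, stromal cells 2 higher and 1 lower, and T cells none called.

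Among the other BCL-2 family genes, Bcl2l1, which encodes the survival protein BCL-XL, was higher in tumour cells (7.75 to 13.4 CPM, 0.79), macrophages (45.1 to 68.5 CPM, 0.60) and endothelial cells (log2 1.18, 0.51 to 1.92). Bcl2 was lower in tumour cells (11.9 to 7.20 CPM) and endothelial cells (31.3 to 11.2 CPM). Bik (13.7 to 7.97 CPM) was lower in tumour cells, Bad (57.9 to 35.3 CPM) in macrophages and Bok (121 to 42.5 CPM) in endothelial cells. Bcl2a1b was at 0.504 and 7.84 CPM in tumour cells and at 0 vehicle UMIs against 7.91 CPM in endothelial cells, at least 3.87-fold higher; the myeloid lists given above were higher with TAK-931 in both classes, and their part in these values and in the endothelial Gdf15 value was not tested. In all, 3 genes of the list were higher and 2 lower of 11 in tumour cells, 1 and 1 of 8 in macrophages, 0 and 0 of 9 in monocytes, 1 and 0 of 9 in T cells, 3 and 3 of 11 in endothelial cells and 3 and 1 of 10 in stromal cells.

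Across the 12 class and library sums, the genes most like Cdkn1a in log2(CPM + 5) were Grina (Pearson r 0.97), Tor3a (0.97) and Picalm (0.96), out of 13557 genes with at least 100 UMIs. Among the members, Mdm2 (0.82) and Bax (0.78) were closest to Cdkn1a and Trp53inp1 ran opposite to it (-0.91). For Mdm2 the most alike were Adora2b (0.96), Pim1 (0.96) and Arhgef10l (0.96), and for Ccng1 5830408C22Rik (0.92), Hccs (0.87) and Helb (0.87). These 12 sums come from 2 libraries and 6 classes of unlike depth, so they are a description of shared pattern over classes and carry no p.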

How the data were processed

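Gene expression was profiled by droplet 3′ single-cell RNA sequencing of J558 allografts, with 1 vehicle and 1 TAK-931 library. The deposited matrices hold raw UMI counts per gene and barcode, made by the authors with Cell Ranger 6.0.0 and not normalised; the submitters' notes name mm10, whereas the paper's methods name a human build, and the features carry mouse identifiers. Other deposited columns hold barcodes and gene names. Library totals were 144767193 and 77369283 UMIs.

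Cells needed more than 2000 genes and less than 15% mitochondrial UMIs, the limits in the study's methods; doublets were not called, but cells with markers of several lineages were left out. Each cell was thinned to 2000 UMIs and placed by detected markers out of 10 per list: at least 4 for tumour or endothelial, 5 for myeloid, 3 for T or stromal, and only 1 lineage. Myeloid cells were macrophages with 5 or more macrophage markers and monocytes with at most 2 of these and 2 or more monocyte markers; those with 2 or more dendritic, NK or neutrophil markers were left out. These thresholds were set after marker counts, not member values, were seen. UMIs were summed per class and library. Ratios are log2 of TAK-931 over vehicle CPM with exact conditional binomial 95% intervals; 0.5 UMI was added to both counts where one was 0, and a count of 0 was bounded by 3 counts. Free RNA was the median level of other lineages' markers relative to the whole library.

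The members, lists and markers were chosen with earlier results of these data known. Named genes were all 10 members, the 2 highest and 2 lowest called genes per other list in classes with at least 50 cells in each library, and the 3 genes most alike to Cdkn1a, Mdm2 and Ccng1. Some genes that this rule names are not reported here. The 13 alternatives, of which 1 was added after seeing the data, are given in the closing section; steps were tested on simulated data. Tools were python 3.11.15, numpy 2.4.6, scipy 1.17.1, pandas 2.3.3, scanpy 1.11.5, leidenalg 0.10.2, igraph 0.11.9 and matplotlib 3.10.9.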

Additional observations from a re-analysis of the deposited data

Results flagged for a closer look

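Cdkn1a was the one member that was called in opposite directions in different classes of the same comparison. Its log2 ratio of TAK-931 over vehicle was -0.77 in tumour cells, 0.97 in endothelial cells and 1.14 in stromal cells. The endothelial call was lost with the mean of cell CPM (0.55) and with thinning to 4000 UMIs (0.52), and the tumour and stromal calls with thinning. With 1 library per group the difference between the classes was not tested.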

How the results depend on the processing

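No paired analysis was possible because each group had 1 library and the labels gave no replicate numbers. Under 13 alternatives, of which 1 was added after seeing the data (cells with 2 or more G2/M UMIs at 4000 UMIs left out), the median log2 ratio over the members stayed within the counting interval of its middle genes in macrophages, monocytes, endothelial and stromal cells. It did not in T cells, where it went from -0.23 to 0.52 with the top cell of each gene left out and to 1.01 without cells with G2/M UMIs, and in tumour cells, where it went to -0.50 without those cells; the cause was not tested, and these left 8 vehicle T and 19 TAK-931 tumour cells. In endothelial cells the median changed sign with the mean of cell CPM (-0.20), the stricter gate (-0.07) and thinning (-0.12), and in T cells also with the mean of cell CPM (0.09), whole clusters named (0.13) and thinning (0.15). Of 14 calls, 3 were kept under all 13 alternatives: Mdm2 in macrophages and stromal cells and Pmaip1 in monocytes. The alternatives with a minimum of 50 UMIs or of 1 UMI changed only which pairs were tested and could not alter these calls. With free RNA subtracted and with the mean of cell CPM, the main interval was moved along with the ratio and not recomputed. Thinning to 4000 UMIs, with fewer UMIs by construction, kept 4 of the 14. Phlda3 was kept under 6 of 13 in macrophages and 7 of 13 in endothelial cells, and 15 other pairs gained a call under at least 1 alternative, most often Bbc3 in tumour cells (lower under 6) and Mdm2 in monocytes and Pmaip1 in endothelial cells (higher under 5 each). With whole clusters named in place of gates, Trp53inp1 in stromal cells reversed, to -0.34, and monocytes kept 1 of 4 calls. The median ratio of well-covered genes was -0.20 in macrophages, -0.16 in T, -0.25 in endothelial and -0.24 in stromal cells, and scaling by it moves every ratio up by as much. The median difference in share of cells was 0.84 points at 4000 UMIs, 0.85 at 2000 and 2.23 without thinning.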
